A study of Mus musculus with 8 samples.

Results

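The genes described here encode the nuclear subunits of the mitochondrial respiratory chain and of the ATP synthase. They were every gene on the array whose probe sets carried a single gene symbol starting with Nduf, with Sdha, Sdhb, Sdhc or Sdhd, with Uqcr, with Cox4 to Cox8, or with Atp5. Genes starting with Ndufaf, which encode assembly factors of complex I, were left out (4 probe sets of 2 genes). This gave 71 genes on 96 probe sets, of 8252 genes on 10855 probe sets with a single symbol. By complex, there were 29 genes of complex I, 4 of complex II, 7 of complex III, 15 of complex IV and 14 of complex V. A further 2, Sdhaf1 and Sdhaf2, matched by their letters but encode assembly factors of complex II, so they are given apart from the subunits. Probe sets annotated with several symbols, of which 10 would have matched, were not used.

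Lungs of C57/Bl6 mice were taken on postnatal day 6, when secondary septa grow out and subdivide the air spaces. In one group, the tips of secondary septa were cut out by laser capture, in which a microscope-guided laser lifts chosen areas from a frozen section, and tips of many mice of different litters were combined. In the other, RNA was prepared from pooled whole lung of the same age. No genotype, transgene or treatment is given for either group. Both were prepared in experiment 1 and again, from other litters, in experiment 2, and each RNA was hybridised to 2 arrays at different times. There were thus 4 RNAs on 8 arrays, and the replicates were the 2 RNAs of a group. The labels limit the model in several ways. Whole lung also contains septal tips, the tips are a region and not a cell type, and the description of the tip arrays names whole lung, so groups were taken from the titles. RNA amplification is written for all tip arrays and for only 1 lung array, array 1 of experiment 1, whereas the design text has both tissues amplified in parallel. Whether unequal amplification moved the values given here was not tested.

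Complexes I and II pass electrons from NADH and succinate to ubiquinone, complex III passes them on to cytochrome c, and complex IV, cytochrome c oxidase, hands them to oxygen. Complexes I, III and IV pump protons across the inner mitochondrial membrane, and complex V, the ATP synthase, lets protons flow back through its membrane part Fo and makes ATP in its catalytic part F1. Most subunits are encoded in the nucleus, as are all genes described here, and the transcription factors NRF1 and GABPA (also called NRF2) are known to act on many of their promoters. In the lung, surfactant-producing type II cells are known to be rich in mitochondria.

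All values are signals, intensities on a linear scale that the authors made with MAS5, and all differences are tips minus lung on the log2(signal + offset) scale with their standard error, n = 2 RNAs per group. Adjusted p is limma's, corrected by Benjamini-Hochberg over the 7453 probe sets tested, and a gene passed at an adjusted p under 0.05 at its brightest tested probe set. The 4 values of a group are given as arrays 1 and 2 of experiment 1 and then arrays 1 and 2 of experiment 2. In bulk samples such as these, fewer cells of a type and less RNA per cell cannot be told apart.

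The respiratory chain and ATP synthase genes did not move in a single direction. Of the 71 genes, 58 were bright enough to be tested. Of these, 11 (19.0%) were higher in tips, against 14.6% of all 5642 genes tested, and 9 (15.5%) were lower in tips, against 15.1%. Both shares lay near those of all genes. The genes that rose furthest were Cox5b, Atp5d, Cox5a and Sdhb. Cox5a was above background on 1 lung array and Cox5b on 2, so their fitted values depend on the offset. Those that fell furthest were Atp5c1, Atp5md, Uqcrb and Atp5a1, leaving Ndufab1 unranked because its tip level is only bounded. The median difference over the 58 genes was 0.40, from -2.13 to 2.28, and over all genes it was 0.31. All 4 tip arrays lay above all 4 lung arrays for 21 genes (36.2%), against 23.8% of all genes, and below them for 12 (20.7%), against 19.5%. Without the 2 assembly factors the counts were 11 higher and 8 lower of 56.

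**Figure D1:**
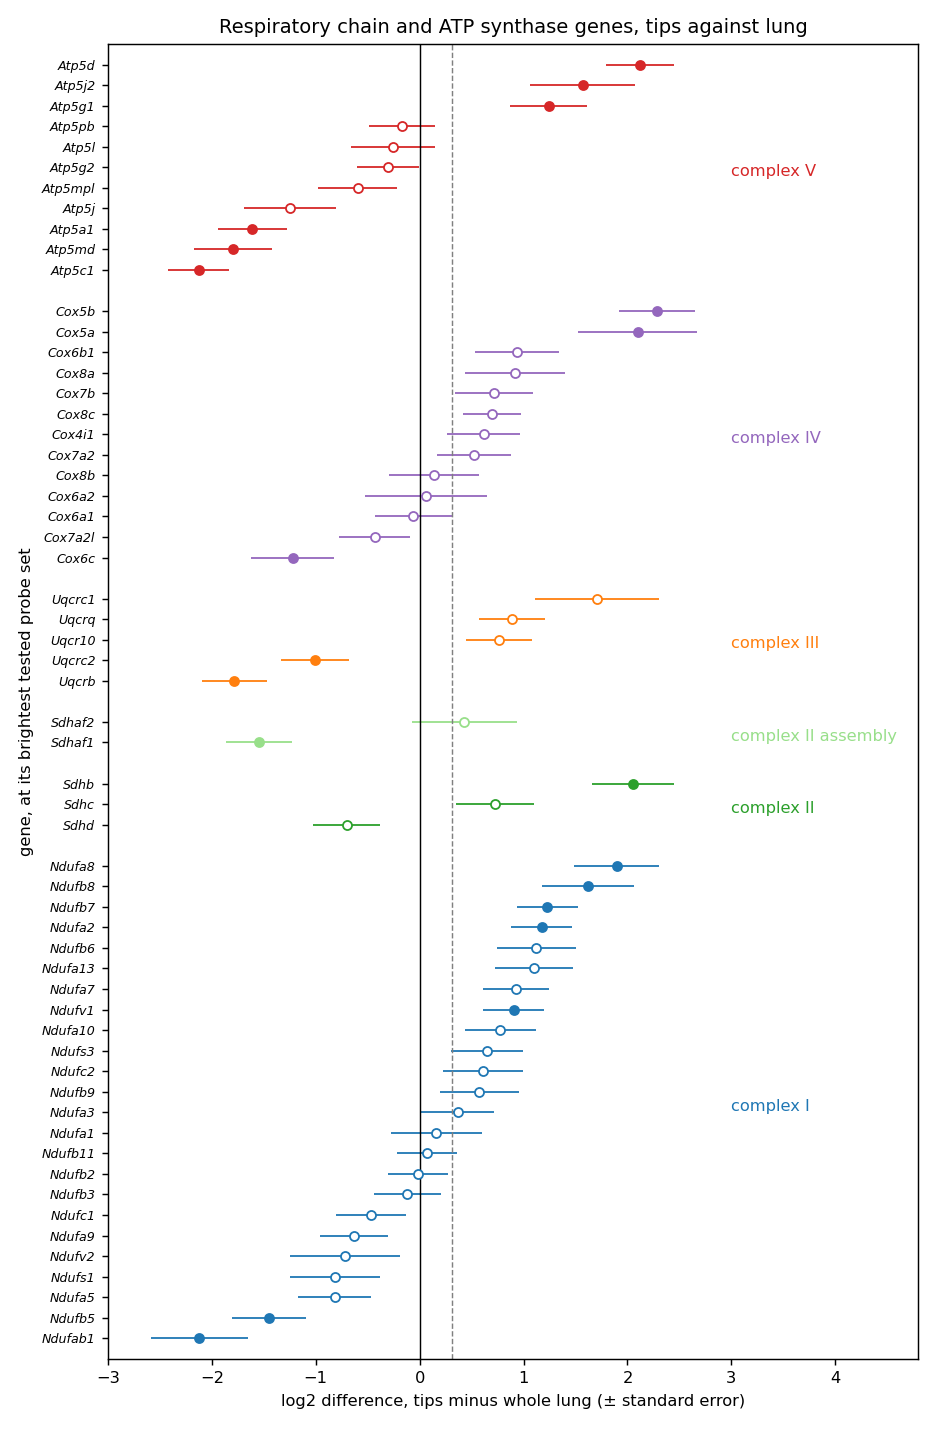
Log2 difference of tips minus lung (horizontal axis, with standard error, n = 2 RNAs per group) of the 58 tested genes, ordered by complex. Filled symbols passed, open ones did not, and the dashed line marks the median of all genes, 0.31. Genes of every complex lie on both sides of 0, from Atp5c1 at -2.13 to Cox5b at 2.28. Ndufab1, Uqcrc1 and Atp5j2 are drawn at fitted values that depend on the offset, since 1 group was below background.

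The counts rest on the small number of RNAs. When either lung RNA was left out, far fewer of the 58 genes passed, and far fewer of all genes. Without the tip RNA of experiment 2, more of both passed. These runs set 1 RNA against 2. Without array 2 of the tip RNA of experiment 1, whose background was the highest, 7 genes were higher and 7 lower. Of all 5642 genes, 565 were higher and 717 lower in that run. The division also moved with the scaling of the arrays: 8 were higher and 4 lower after quantile normalization, 10 and 5 after cyclic loess, and 4 and 13 after centring on the median. The counts over all genes moved too, also where an RNA was left out. Of all genes, 476 were higher and 827 lower of 5647 after quantile normalization, and 627 and 927 of 5642 after cyclic loess. After centring on the median, 203 were higher and 1230 lower of 5642. Under these scalings the median of all genes was 0.02, 0.04 and -0.23. Of the 19 named genes that passed, 8 passed under each of these scalings and without rescaling. Higher were Ndufa8, Sdhb, Cox5b and Atp5d, and lower were Ndufab1, Uqcrb, Atp5c1 and Sdhaf1. Sdhb, Atp5d, Uqcrb, Atp5c1 and Sdhaf1 were read at probe sets named with a suffix that can mark probes further transcripts share. Sdhb, Uqcrb and Sdhaf1 had no other probe set, so they had no value with suffixed probe sets left out. Ndufa8, Cox5b, Atp5d, Ndufab1 and Atp5c1 passed in that run too. None of the 19 changed sign under any alternative run. In the separate experiments, 50 of the 58 genes had the same sign, and the differences of experiment 1 and experiment 2 correlated across genes (Pearson r = 0.853, Spearman rho = 0.845), which are not independent replicates and were read on the same kind of array.

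**Figure D2:**
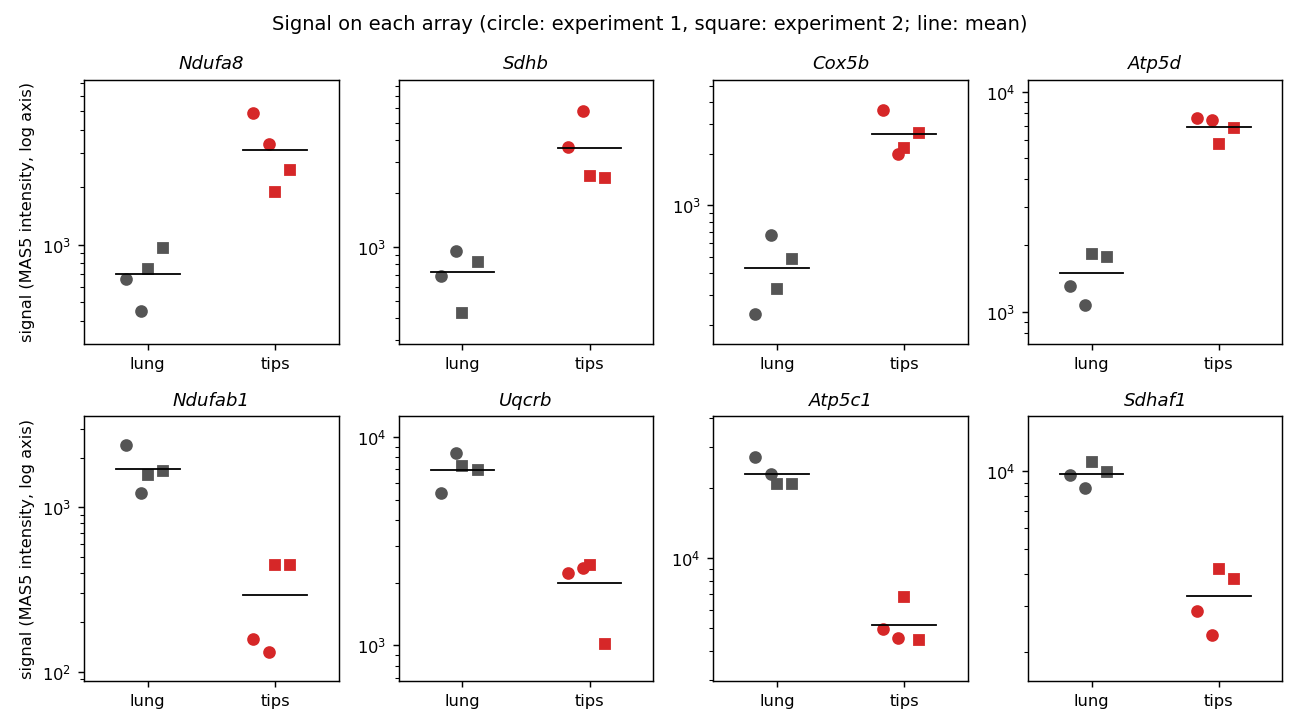
Signal on each of the 8 arrays (vertical log axis) for the 8 genes that passed under all scalings run. Circles are experiment 1, squares experiment 2 and lines group means. The 4 tip arrays lie above all lung arrays for Ndufa8, Sdhb, Cox5b and Atp5d and below them for Ndufab1, Uqcrb, Atp5c1 and Sdhaf1.

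Promoter sequence was set beside these 8 genes except Uqcrb, for which no stretch was available. The motifs of NRF1 and GABPA were searched, because these are the factors best known for this gene group. RefSeq promoter windows (GRCm38.p6, 250 bases before to 50 bases after a transcript's start) were matched for 58 of the 71 genes, in 63 windows. The NRF1 core, read as CGCANGCG on either strand, was present in 36.5% of these windows, against 8.21% of all 32851 windows and 14.2% of the 8409 windows of genes on the array. The ETS motif that GABPA reads, searched as CCGGAAG on either strand, was present in 27.0%, against 8.86% and 14.4%. Either motif was present in 52.4%, against 15.6% and 25.7%. Neither motif holds the other, and a window could hold both. A match is a description of the letters and not a binding site. Stretches of 100 bases are shown for 3 genes that were higher and 2 that were lower in tips. Capitals mark the motif, on the printed or the opposite strand, and all run 5′ to 3′ on the strand of the gene. Atp5d and Atp5c1 have further windows: that of Atp5d, whose stretch at chr10:80142175-80142274 is not shown, held neither motif, and the stretch of the other Atp5c1 window held 1 NRF1 core. The stretches are from chr2:36049340-36049439 (minus strand), chr4:140961184-140961283 (plus), chr10:80142241-80142340 (plus), chr2:10080441-10080540 (minus) and chr7:30322362-30322461 (minus).

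Ndufa8 promoter, NRF1 core in capitals: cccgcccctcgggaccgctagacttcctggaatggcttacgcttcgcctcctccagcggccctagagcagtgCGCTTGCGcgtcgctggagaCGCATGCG
Sdhb promoter, ETS motif in capitals: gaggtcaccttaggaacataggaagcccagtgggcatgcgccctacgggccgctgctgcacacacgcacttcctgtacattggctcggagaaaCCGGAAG
Atp5d promoter, NRF1 core in capitals: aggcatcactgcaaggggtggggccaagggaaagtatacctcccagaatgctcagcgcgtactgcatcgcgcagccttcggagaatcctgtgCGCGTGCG
Atp5c1 promoter, NRF1 core in capitals: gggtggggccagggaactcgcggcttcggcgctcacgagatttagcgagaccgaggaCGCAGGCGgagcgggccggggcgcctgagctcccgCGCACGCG
Sdhaf1 promoter, ETS motif in capitals: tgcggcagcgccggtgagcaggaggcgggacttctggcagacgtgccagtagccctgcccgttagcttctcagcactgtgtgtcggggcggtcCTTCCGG

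Genes with either motif stood on both sides of the comparison. Ndufa8, which rose, and Atp5c1, which fell, each had 2 NRF1 cores in the stretch shown. Sdhb, which rose, and Sdhaf1, which fell, each had 1 ETS motif. The windows of Cox5b and Ndufab1 held neither set of letters. Over windows of genes that were higher in tips, 18.2% of 11 held the NRF1 core and 18.2% the ETS motif. Over those of genes that were lower, the shares were 50.0% and 33.3% of 6, and over those of genes that did not pass, 33.3% and 27.3% of 33. The 6 windows came from 5 of the 9 lower genes. The 3 of them with the NRF1 core came from 2 genes, as Atp5c1 was counted with 2 windows whose stretches overlap. These windows are few, and the differences between them were not tested.

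In complex I, the NADH dehydrogenase, 5 of 24 tested genes were higher in tips and 2 were lower, with a median of 0.47, which turned negative under median centring. Ndufa8, Ndufb7, Ndufa2 and Ndufb8, all accessory subunits that surround the catalytic core, rose furthest by p. Ndufab1, the mitochondrial acyl carrier protein, which also serves fatty acid synthesis in the mitochondrion, and Ndufb5, an accessory subunit of the membrane arm, fell. Ndufa8 gave signals of 664, 453, 744 and 962 in lung and 4859, 3379, 1883 and 2447 in tips. The lowest tip array, 1883, lay above the highest lung array, 962. Its mean went from 706 ± 208 to 3142 ± 1382 (SD, n = 2), a difference of 1.89 ± 0.41 (adjusted p = 0.0109), with 2.59 in experiment 1 and 1.20 in experiment 2. For Ndufb7 the lung arrays read 4401, 6096, 5777 and 7499 and the tip arrays 11224, 15429.9, 12020.1 and 17906. The groups did not overlap, and the difference was 1.23 ± 0.30 (adjusted p = 0.0168). For Ndufa2, an accessory subunit of the matrix arm, lung gave 2099, 2551, 2648 and 2779 and tips 7501, 4795, 5765 and 5641. The groups were again apart, with a difference of 1.18 ± 0.29 (adjusted p = 0.0190).

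Ndufb8 was dim. It read 415, 138, 414 and 96.7 in lung, where 1 array was above background, and 1232, 960.0, 1015 and 972 in tips, where 3 were. Array 2 gave the lower lung value in both experiments, and no tip array fell into the lung range. The difference was 1.62 ± 0.44 (adjusted p = 0.0272). Ndufv1, the core subunit that binds NADH and the flavin cofactor, went from 4523 ± 901 to 8529 ± 151, a difference of 0.90 ± 0.30 (adjusted p = 0.0490). That call was lost in 11 of 23 alternatives, including median centring, no filter and no intensity trend. The 4 nuclear core genes tested also included Ndufs1 at -0.81 ± 0.44 (adjusted p = 0.180), Ndufs3 at 0.65 ± 0.34 (adjusted p = 0.177) and Ndufv2 at -0.72 ± 0.53 (adjusted p = 0.314). Of the 20 accessory genes tested, 4 were higher and 2 lower.

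Ndufab1 was above background on all 4 lung arrays and on no tip array. The lung arrays read 2389, 1231, 1573 and 1659 and the tip arrays 157, 132, 443 and 448. Because its tip level is only bounded, the difference is given as a limit: lung was at least 2.13-fold brighter, taking per tip array the higher of background and signal, and the fitted difference was -2.12 ± 0.47 (adjusted p = 0.0122). For Ndufb5, lung gave 34381, 39704, 41645 and 47001 and tips 11415, 11692, 20321 and 17239.5. Every tip array lay below every lung array, and the gene fell by 1.45 ± 0.36 (adjusted p = 0.0190). Among the other 17 tested genes of complex I, differences ran from -0.82 (Ndufa5) to 1.12 (Ndufb6) and none passed. Ndufb6 (adjusted p = 0.0540) and Ndufa7 (adjusted p = 0.0562) passed with the experiment as a replicate block, at adjusted p of 0.0377 and 0.0354. Ndufb7 lost its call in 3 of 23 alternatives and Ndufa2 in 4 of 23, both under median centring among others. Ndufb8 lost it in 8 of 20, the 3 scalings named above included, and Ndufb5 in 6 of 22, including quantile normalization and cyclic loess. Ndufa8 lost it in 3 of 23 and Ndufab1 in 4 of 22.

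In complex II, succinate dehydrogenase, the iron-sulphur subunit Sdhb rose, and the membrane anchors Sdhc and Sdhd did not pass. Sdhb read 692, 948, 429 and 827 in lung and 3653, 5790.5, 2492 and 2443 in tips. The tip arrays were all above the lung arrays, and the means were 724 ± 136 and 3595 ± 1594 (SD, n = 2). The difference was 2.05 ± 0.39 (adjusted p = 0.00695), with 2.31 in experiment 1 and 1.80 in experiment 2. Sdhc gave 846, 987, 779 and 824 in lung and 1444, 2300.2, 1152 and 1341 in tips, and Sdhd gave 3555, 2672, 2945 and 3194 and 2527, 914, 2490.1 and 1899. For Sdhc the tip arrays were all above and for Sdhd all below the lung arrays, with differences of 0.72 ± 0.38 (adjusted p = 0.169) and -0.70 ± 0.32 (adjusted p = 0.126). Sdhd passed under median centring. The flavoprotein subunit Sdha was too dim to be tested. Of the assembly factors, Sdhaf1, which helps to insert the iron-sulphur clusters into Sdhb, fell. Its signals were 9646, 8603, 10821 and 9862 in lung and 2882, 2320.4, 4177 and 3828 in tips. No tip array reached the lung range, and the gene fell by 1.55 ± 0.32 (adjusted p = 0.00880). Sdhaf2, needed to attach flavin to Sdha, was above background on 2 lung arrays and 1 tip array and gave 0.43 ± 0.51 (adjusted p = 0.540), with the opposite sign under quantile normalization, median centring and cyclic loess.

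In complex III, the cytochrome bc1 complex, 2 of 5 tested genes were lower in tips and none was higher past the threshold, while all 5 had an unadjusted p under 0.05, as did 44.9% of all genes. The 2 were Uqcrb, a small subunit at the ubiquinone pocket, and Uqcrc2, one of the core proteins on the matrix side. Uqcrb read 5418, 8394, 7239.9 and 6926 in lung and 2216, 2341, 2445 and 1012 in tips. All tip arrays were below all lung arrays, with array 2 of experiment 2 the lowest. Its mean went from 6994 ± 125 to 2003 ± 389, and it fell by 1.78 ± 0.31 (adjusted p = 0.00482). Uqcrc2 gave 28859, 36511, 27562 and 25989 in lung and 20686, 13696, 12622 and 12732 in tips. The groups did not overlap, the highest tip array being array 1 of experiment 1, and the gene fell by 1.01 ± 0.33 (adjusted p = 0.0486). That call was lost in 12 of 22 alternatives, including quantile normalization, cyclic loess, an offset of 2%, no filter and no intensity trend.

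The other 3 genes of complex III lay higher in tips on all arrays without passing. Uqcrc1, the partner of Uqcrc2 in the core, was above background on no lung array and on 3 tip arrays. It read 375, 373, 329 and 182 in lung and 2440.3, 2868, 947 and 429.5 in tips. Tips were 3.14-fold brighter, taking per lung array the higher of background and signal. That value is no strict lower limit, because array 2 of the tip RNA of experiment 2 was below background. The fitted difference, 1.71 ± 0.60 (adjusted p = 0.0599), did not pass. The 4 tip arrays differed widely, from 429.5 to 2868. Uqcrq gave 0.89 ± 0.32 (adjusted p = 0.0653) and Uqcr10 0.76 ± 0.32 (adjusted p = 0.0993). With the experiment as a replicate block, Uqcrc1 (adjusted p = 0.0172) and Uqcrq (adjusted p = 0.0448) passed. Whether the core proteins Uqcrc1 and Uqcrc2 differ from each other was not tested.

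In complex IV, 2 of 13 tested genes were higher in tips and 1 was lower, with a median of 0.61. Cox5a and Cox5b, nuclear subunits that sit on the catalytic core, rose, and Cox6c, a small membrane subunit, fell. Cox5b read 230.4, 672, 323 and 483 in lung, with 2 arrays above background, and 3609, 1996, 2172 and 2659 in tips, with 4. Its lowest tip array lay above its highest lung array. The means were 427 ± 34 and 2609 ± 274, and the difference of 2.28 ± 0.36 (adjusted p = 0.00348) was the largest of the 58 fitted values, at 2.34 in experiment 1 and 2.22 in experiment 2. Cox5a read 115, 855, 60.6 and 29.8 in lung, with 1 array above background, and 1294, 1730.5, 732 and 1273 in tips, with 4. Here the groups overlapped, since array 2 of the lung RNA of experiment 1 read higher than array 1 of the tip RNA of experiment 2. The difference was 2.10 ± 0.57 (adjusted p = 0.0265), and it did not pass in 10 of 22 alternatives, including quantile normalization, median centring and cyclic loess. Cox6c gave 33847, 29103, 38389.7 and 25888 in lung and 9953, 8349, 23522 and 16348 in tips. The groups were apart, with the tips of experiment 1 lowest, and the gene fell by 1.22 ± 0.40 (adjusted p = 0.0487), a call lost in 13 of 22 alternatives, including quantile normalization, cyclic loess, an offset of 2%, no filter, no intensity trend and each array alone.

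Several subunits of complex IV have tissue isoforms, in some cases a general one and one known from heart and skeletal muscle. The list of isoform genes also held other forms, such as the testis form Cox8c. Its genes Cox4i2 and Cox7b2 were not analysed here. None of the 9 isoform genes tested passed. Of the pair at subunit VIa, the general Cox6a1 gave 52096, 55824, 50298 and 50694 in lung and 50008, 53295, 52138 and 45196 in tips, and the muscle form Cox6a2 gave 1825, 1185, 301 and 869.8 and 1594, 1721, 798 and 316. In both the groups overlapped, with differences of -0.06 ± 0.37 (adjusted p = 0.914) and 0.06 ± 0.59 (adjusted p = 0.945). The sign of Cox6a1 changed under quantile normalization and cyclic loess, and that of Cox6a2 under these and median centring. At subunit VIII, the general Cox8a was above background on 1 lung array and 2 tip arrays and gave 0.92 ± 0.48 (adjusted p = 0.173), the muscle form Cox8b gave 0.14 ± 0.43 (adjusted p = 0.826) with the sign changed by all 3 of those scalings, and the testis form Cox8c gave 0.70 ± 0.28 (adjusted p = 0.0919). Cox8c passed under quantile normalization and cyclic loess. Its other probe set was below background on all 8 arrays, at 22.4 to 50 in lung and 38.3 to 197.6 in tips, and was not tested. At subunit VIIa, the general Cox7a2 gave 0.52 ± 0.35 (adjusted p = 0.281), negative under median centring, and the muscle form Cox7a1 was too dim to test. The general forms Cox4i1, Cox6b1 and Cox7b gave 0.61 ± 0.35 (adjusted p = 0.209), 0.94 ± 0.40 (adjusted p = 0.106) and 0.72 ± 0.37 (adjusted p = 0.168). Heart and skeletal muscle markers, set beside these isoforms, were present on the array for 32 genes. Of these, 10 were below background on all 8 arrays, including Myl2, Myl3, Myl7, Mb and Tnnt3, and 5 were above it on all 8, Actc1, Casq1, Myh7, Myl4 and Tnnt1. Myh6, the alpha myosin heavy chain of heart, differed between experiments, at 9041, 6360.4, 97.8 and 24.7 in lung and 5959, 4590.4, 1657 and 1067 in tips. Summed over the list, lung arrays gave 17439 to 34482 and tip arrays 29016 to 41117. Of 16 tested (median 0.79) 1, the atrial light chain gene Myl4, was higher in tips, against 14.6% of all genes. The part of these markers in the isoform values was not tested.

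In complex V, 3 of 11 tested genes were higher in tips and 3 were lower, and the median of -0.30 was below 0, as it was under each scaling run, while the medians of complexes I to IV were above 0 except that of complex I under median centring and that of complex III under stricter filters. The catalytic part F1, of which 3 genes were tested, held the extremes of complex V, Atp5d and Atp5c1. Its gene Atp5e was too dim to be tested, and Atp5b was not analysed here. Atp5d, the delta subunit of the central stalk, rose, while Atp5c1, the gamma subunit of the same stalk, and Atp5a1, the alpha subunit of the ring around it, fell. Atp5d read 1305, 1066, 1829.9 and 1774 in lung and 7551, 7414, 5782 and 6808 in tips. The lowest tip array was at 5782 and the highest lung array at 1829.9. The means were 1494 ± 436 and 6889 ± 839.8 (SD, n = 2), and the difference was 2.12 ± 0.32 (adjusted p = 0.00297). Atp5c1 read 27122, 22958, 20807 and 20796 in lung and 4953, 4514, 6773 and 4445 in tips. Here all tip arrays lay far below the lung arrays, the mean went from 22921 ± 2997 to 5171 ± 619, and the gene fell by 2.13 ± 0.30 (adjusted p = 0.00205). Atp5a1 gave 47855, 48792, 56936 and 54879 in lung and 18797, 15068, 20959.8 and 13778 in tips. The groups were apart, and it fell by 1.61 ± 0.33 (adjusted p = 0.00880), a call lost in 4 of 23 alternatives, including quantile normalization and cyclic loess. Atp5d and Atp5c1 passed in the same direction under all 22 alternatives in which each had a value. Those that left out an RNA set 1 RNA against 2, and there the lone RNA was assumed to vary like the other group.

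In the membrane part Fo and the stalks, 2 of 8 tested genes were higher and 1 was lower. Atp5g1, one of several genes for the c subunit of the proton-carrying ring, read 829, 822, 563 and 582 in lung and 1951, 2005, 1323 and 2172 in tips. The tip arrays were all above the lung arrays, and the difference was 1.24 ± 0.37 (adjusted p = 0.0369). Atp5g2, whose mature c subunit is the same protein, gave -0.30 ± 0.30 (adjusted p = 0.459), and Atp5g3 was not analysed here. Atp5j2, subunit f, was above background on no lung array and on 2 tip arrays, at 342, 229, 36.4 and 256 in lung and 1159, 950.2, 463 and 1088 in tips. Tips were 2.08-fold brighter, taking per lung array the higher of background and signal. That value is no strict lower limit, because some tip arrays were below background too. The fitted difference was 1.57 ± 0.50 (adjusted p = 0.0458). Both calls depended on the scaling: Atp5g1 passed under none of quantile normalization, median centring and cyclic loess, and Atp5j2 passed under neither of the last pair and was too dim to be tested after quantile normalization. In all, Atp5g1 lost its call in 11 of 23 alternatives and Atp5j2 in 10 of 18. Atp5md, a small subunit that helps to link the enzyme into dimers, read 27279, 37505, 27607 and 37244 in lung and 6820.0, 6154, 16024 and 10195 in tips. The groups did not overlap, the tips of experiment 1 being lowest, and it fell by 1.80 ± 0.38 (adjusted p = 0.00953), lost in 5 of 22 alternatives, including quantile normalization. Atp5j, the coupling factor of the peripheral stalk, gave -1.25 ± 0.44 (adjusted p = 0.0610) and passed with the experiment as a replicate block (adjusted p = 0.00573). The remaining genes, Atp5pb, Atp5mpl and Atp5l, gave -0.17, -0.60 and -0.26, and none passed.

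Where a gene had more than 1 tested probe set, the probe sets did not always give the same sign. Of 9 such genes, 4 had a single sign and 5 had both. All 4 tested probe sets of Atp5d were higher in tips past the threshold, at 1.53, 1.58, 2.12 and 2.12. Both of Atp5c1 were lower, at -2.13 and -1.74 (adjusted p = 0.00710). Atp5l, subunit g, went both ways: its brightest probe set gave -0.26 ± 0.41 (adjusted p = 0.649), and the other, whose name marks probes that further transcripts can share, gave 1.73 ± 0.49 (adjusted p = 0.0294). At that second probe set lung read 190, 181, 229.9 and 167, all below background, and tips read 1159, 1402, 744 and 746. Tips were 2.35-fold brighter, taking per lung array the higher of background and signal. Array 2 of the tip RNA of experiment 2 was below background too, so this is no strict lower limit. Atp5g2 gave -0.30 at the brighter and 1.05 (adjusted p = 0.0920) at the dimmer probe set, and Cox4i1 gave 0.61 and -0.07. Ndufb2 and Ndufv2 likewise had probe sets of both signs, none past the threshold.

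**Figure D3:**
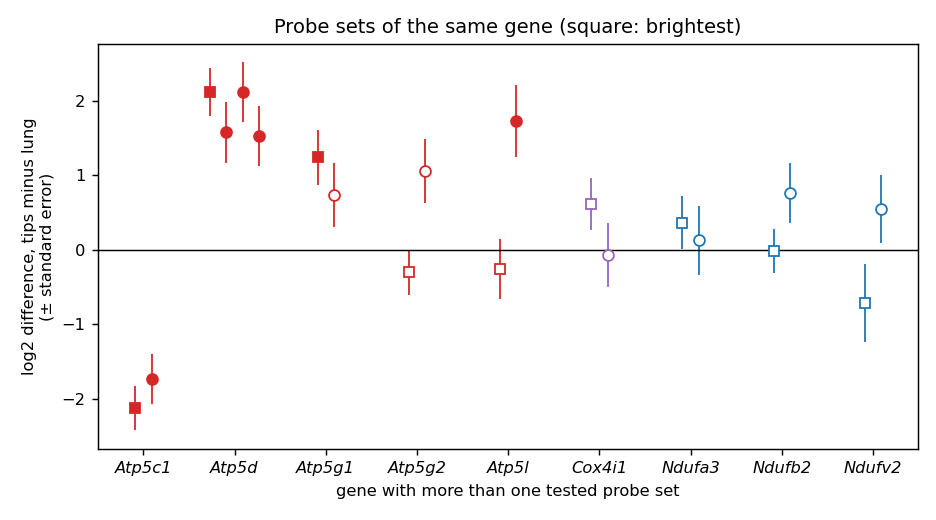
Log2 difference of tips minus lung (vertical axis, with standard error) for each tested probe set of the 9 genes that had more than 1. Squares are the brightest probe set of a gene, and filled symbols passed. The 4 probe sets of Atp5d lie above 0 and both of Atp5c1 below it, while those of Atp5l lie on both sides.

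Level and direction moved together in this array data set. The 11 brightest of the 58 genes, those above the 90th percentile of brightness over all genes, had a median difference of -1.22, and 6 of them were lower in tips: Atp5a1, Atp5c1, Atp5md, Cox6c, Ndufb5 and Uqcrc2. Ndufb7 was the only one of the 11 that was higher. Among all 565 genes that bright, the median was -0.75, with 41.9% lower and 10.4% higher. Of the 21 below the 50th percentile, 5 were higher and 1 was lower, with a median of 0.72, where all 2821 genes below it gave a median of 0.52, with 13.6% higher and 5.81% lower. The 26 between gave a median of 0.44, with 5 higher and 2 lower, and all 2256 genes there gave a median of 0.14, with 16.9% higher and 19.9% lower. The arrays of the groups themselves differed in this respect: the median signal of all probe sets was 501 to 572 on lung arrays and 787 to 924 on tip arrays, and background was 314 to 568 and 487 to 1244. The part of this in the members' differences was not tested. The kind of probe set moved with direction too. Probe sets with the suffix f, s, r, x, g or i in their name were counted as shared. Of these letters, r and i do not mark sharing between transcripts. Of 18 genes read at such a probe set, 7 were lower and 2 higher, with a median of -0.51. The 7 were Ndufb5, Sdhaf1, Uqcrb, Uqcrc2, Cox6c, Atp5c1 and Atp5md. All of these but Sdhaf1 and Uqcrb were also among the 6 bright genes named above as lower. For them, suffix and brightness could not be told apart. Of the 40 read at others, 2 were lower and 9 higher, with a median of 0.67. All genes ran the other way: of 906 with such a name 16.6% were higher and 11.5% lower (median 0.43), and of 4736 without, 14.3% and 15.8% (median 0.28). With shared probe sets left out for every gene, 12 of 45 genes were higher and 4 lower. Of all 4997 genes in that run, 779 were higher and 824 lower.

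**Figure D4:**
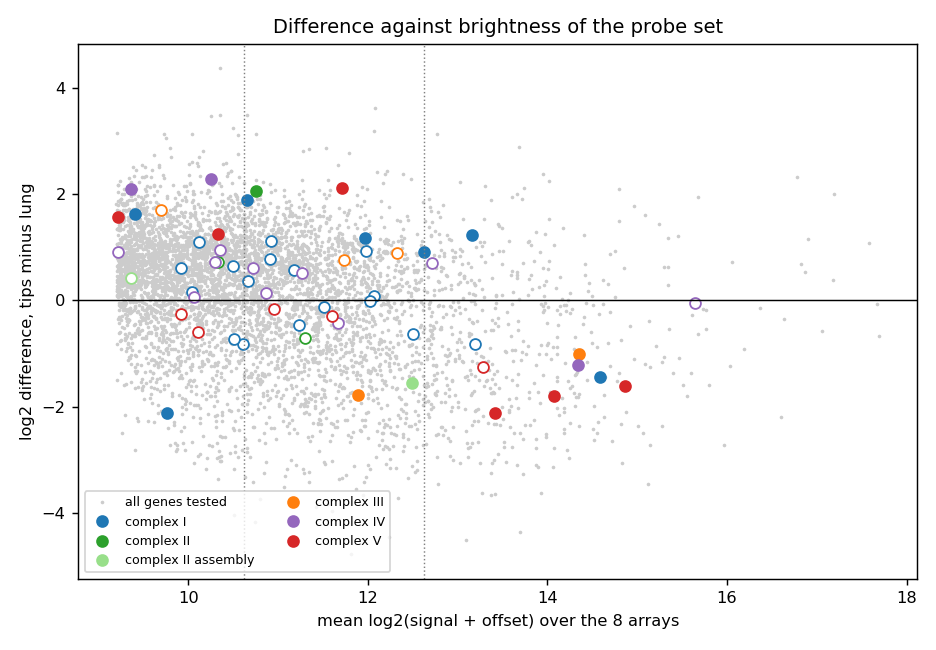
Log2 difference of tips minus lung (vertical axis) against the mean log2(signal + offset) over the 8 arrays (horizontal axis) for all genes tested (grey) and the genes of complexes I to V (coloured). Above the 90th percentile of brightness, at the right, the median is -1.22 for the 11 genes described and -0.75 for all 565 genes.

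The genes around the chain were described by lists, each beside the all-gene shares of 14.6% higher and 15.1% lower. Some list members, such as Aco1, Idh1, Mdh1 and Slc25a17, encode proteins that act outside the mitochondrion. Of 19 assembly factors and electron carriers, Sdhaf1 and Sdhaf2 left out, 1 was higher and 2 were lower. Uqcc2, an assembly factor of complex III, was above background on no lung array and on all 4 tip arrays, at least 3.81-fold brighter in tips (adjusted p = 0.00533). Etfa, a subunit of the flavoprotein that brings electrons from fatty acid oxidation, fell by 2.53 ± 0.33 (adjusted p = 0.00168), and Cox17, the copper chaperone of complex IV, fell by 1.60 ± 0.30 (adjusted p = 0.00618). Cytochrome c1, encoded by Cyc1 and a subunit of complex III named outside the rule, gave -0.25 ± 0.32 (adjusted p = 0.568). Of 23 genes of the citric acid cycle and pyruvate dehydrogenase, 4 were lower and none was higher past the threshold, and 8 (34.8%) had an unadjusted p under 0.05, against 44.9% of all genes. Sucla2, a subunit of succinyl-CoA synthetase, fell by 3.63 ± 0.34 (adjusted p = 0.000941), and the pyruvate dehydrogenase kinase gene Pdk3 fell by 1.38 ± 0.37 (adjusted p = 0.0246). Sucla2 was read at a probe set named with a suffix that can mark probes further transcripts share.

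Of 32 carriers, porins and import genes, 4 were higher and 5 lower. Timm13, a small import chaperone, rose by 2.41 ± 0.31 (adjusted p = 0.00168) and the oxoglutarate carrier Slc25a11 by 1.91 ± 0.37 (adjusted p = 0.00689), while the chaperonin Hspd1 fell by 2.09 ± 0.35 (adjusted p = 0.00421) and the porin Vdac2 fell by 2.21 ± 0.38 (adjusted p = 0.00459). Of 48 mitochondrial ribosomal protein genes, 8 were higher and 2 lower, with a median of 0.54. Mrps26 rose by 1.92 ± 0.39 (adjusted p = 0.00834) and Mrpl24 by 1.70 ± 0.38 (adjusted p = 0.0125), and Mrps14 fell by 1.61 ± 0.30 (adjusted p = 0.00608) and Mrpl9 fell by 1.39 ± 0.44 (adjusted p = 0.0455). Of 11 regulators of mitochondrial gene expression, 2 were higher, the mitochondrial RNA polymerase Polrmt at 1.94 ± 0.40 (adjusted p = 0.00900) and the nuclear receptor Esrra at 1.59 ± 0.34 (adjusted p = 0.0104), and 1 was lower. The 1 that fell was Gabpa, which encodes a factor known to read ETS motifs. It fell by 1.64 ± 0.32 (adjusted p = 0.00728), with 6056 ± 1523 in lung and 1811 ± 207 in tips. Gabpb1, on the same list, gave 0.80 ± 0.39 (adjusted p = 0.143). Whether the factor binds any promoter shown above was not tested.

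Markers of the cells that tips and lung can hold were counted as well, beside the all-gene shares of 14.6% higher and 15.1% lower. Of 11 endothelial markers, all of them above background on all 8 arrays, 6 were higher and 2 lower, and their summed signal was 110112 to 155696 in lung and 378614 to 390589 in tips. That gap was carried by Eng, an endothelial co-receptor, since the other 10 markers summed to 55045 to 62222 and 68349 to 98867. Of 7 type II cell markers 2 were higher, with sums of 43239 to 63229 and 130859 to 151652, and without the surfactant gene Sftpc the other 6 summed to 20715 to 28159.5 and 33102 to 42238. Of 10 myofibroblast and smooth muscle markers 5 were higher and 1 lower, and the sums, 85105 to 155930 and 95985 to 209188, overlapped, as they did without elastin, Eln (49033 to 87824 and 48975 to 60548). Airway markers gave 2 higher of 4 (sums of 15281 to 25149 and 34844 to 86051) and red cell markers 2 higher of 4 (11929 to 37416 and 29741 to 99686.4). Leukocyte markers gave 1 higher and 1 lower of 7 (18572 to 22892 and 25292 to 35048). None of 4 brown fat markers passed, with 1 at an unadjusted p under 0.05 (1247 to 2197 and 3240.2 to 5900.4). The part of cell makeup in the differences of the respiratory chain genes was not tested.

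**Figure D5:**
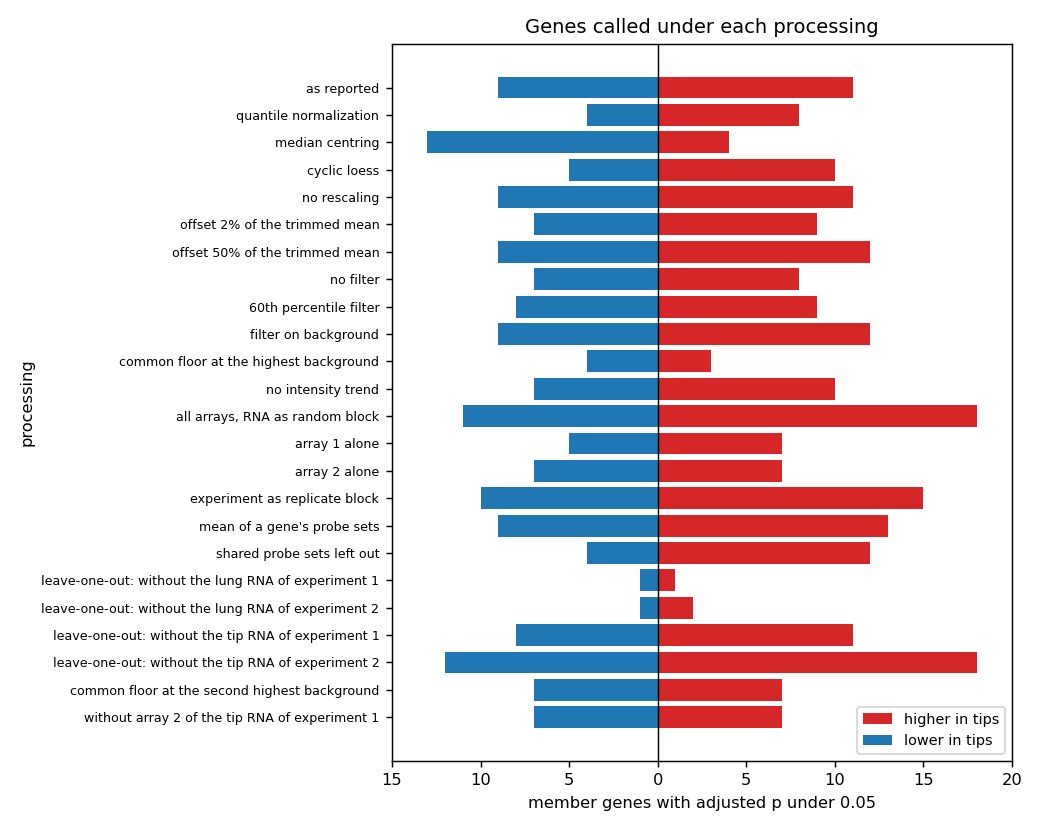
Number of the respiratory chain and ATP synthase genes with an adjusted p under 0.05 (horizontal axis; higher in tips to the right, lower to the left) under each processing (vertical axis). The fewest genes passed without the lung RNA of experiment 1 and the most without the tip RNA of experiment 2. The same held over all genes tested. Both runs set 1 RNA against 2.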

How the data were processed

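The authors deposited MAS5 intensities, per the submitters' processing notes, which name no version; array design, genome build and detection calls are not given in the sources used here. A PicoPure kit for extraction and a RiboAmp kit for amplification are named, per the labels' protocols. Each array's trimmed mean (2% off each end) had been set near 1500.9 in the deposited intensities.

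Arrays were scaled to that mean, an offset of 150.09 (10% of it) was added, so that changes of dim probe sets are understated, and log2 was taken. The 66 control probe sets, and probe sets under the 40th percentile of mean log2 value, were left out, leaving 7453 of 12488. Arrays of an RNA were averaged as technical repeats, and tips and lung compared with limma 3.58.1 in R 4.3.3 (eBayes with an intensity trend) on 2 against 2 RNAs, with 2 residual and 7.05 prior degrees of freedom. The median standard error was 0.40, and the number of arrays limits the precision. An exact permutation test over 2 against 2 RNAs could not go below p = 0.333. Background was, per array, the 95th percentile of 19 bacterial and yeast control probe sets. The fit was tested on simulated data.

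The design text gives an experiment's tips and lung shared processing, so its number pairs the RNAs; their deviations from the group means correlated at 0.0452 over probe sets.

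The members, lists and tests were chosen with earlier results of these data known. Named genes were, per complex, up to 4 in each direction by smallest p among those past the threshold, all Sdh genes, the complex IV isoforms, the c subunit genes, genes whose tested probe sets differ in sign with 1 past the threshold, and up to 2 per direction of each other list. Ndufv1, Ndufs1, Ndufs3, Ndufv2, Ndufa5, Ndufa7, Ndufb2, Ndufb6, Uqcrc1, Uqcrq, Uqcr10, Atp5j, Atp5pb and Atp5mpl were named after their values were seen. The 13 genes not tested were Ndufa12, Ndufa6, Ndufb10, Ndufs4, Ndufv3, Sdha, Uqcr11, Uqcrh, Cox6b2, Cox7a1, Atp5e, Atp5k and Atp5o. None of the 27 untested probe sets was above background on all arrays of a group. Alternatives covered scaling, offset, filter, floor, trend, array, experiment block, probe set choice and each RNA left out.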

Additional observations from a re-analysis of the deposited data

Results flagged for a closer look

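Of 66 sets of 4 arrays (the 33 named genes in each group), 3 held an array that stood apart from the other 3, and chance alone marks about 1 in 20. Uqcrb in tips read 1012.2 on array 2 of experiment 2, the lowest of the 4. Uqcrc2 in tips read 20686 on array 1 of experiment 1, the highest. Cox8a in tips read 828 on array 2 of experiment 2, the highest. The arrays of a group hold 2 technical repeats of each RNA.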

How the results depend on the processing

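The 19 named genes that passed kept their direction under every alternative run in which they had a value. Of 724 single-gene values under alternatives, 102 lost the threshold, 9 gained it and 25 changed sign, the last among genes that had not passed. With the experiment as a replicate block, 15 genes were higher and 10 lower, and the block lost none of the calls on the 19. The median standard error of 0.40 limits what could pass, and dim genes depend most on background.

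Counts are given as higher and lower, against 11 and 9. They were 8 and 4 after quantile normalization, 10 and 5 after cyclic loess, 4 and 13 after median centring, 18 and 11 with all arrays and RNA as a random block, 7 and 5 on array 1 alone, 7 and 7 on array 2 alone, 3 and 4 with a floor at the highest background and 12 and 4 without shared probe sets. Over all genes, the counts were 977 and 957 with the experiment as a block and 1142 and 1026 with RNA as a random block. They were 402 and 600 on array 1 alone, 504 and 688 on array 2 alone and 206 and 490 with the highest floor. Chosen after seeing the data, 2 further runs each gave 7 and 7 of the 58 genes. These were a floor at the second highest background and leaving out array 2 of the tip RNA of experiment 1. Leaving out each RNA, where the lone RNA is assumed to vary like the other group, gave both the fewest and the most genes past the threshold. The same held over all genes.

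The median of all 58 genes (0.40) became 0.10 after quantile normalization, -0.15 after median centring, 0.22 after cyclic loess, 0.21 with an offset of 50%, 0.14 with a 60th percentile filter, 0.15 with a filter on background, 0.13 and 0.30 with the highest and second floor, 0.36 and 0.58 on array 1 and array 2 alone and 0.65 without shared probe sets. That of complex I (0.47) became, in the same order, 0.15, -0.072, 0.22, 0.32, 0.36, 0.36, 0.21, 0.34, 0.47, 0.62 and 0.63, and 0.31 with no filter, 0.50 with an offset of 2% and 0.41 without the array left out above. That of complex II (0.72) became 0.28, 0.18 and 0.31 under the 3 scalings, 0.28 with the highest floor, 0.25 with no filter and 0.0094 without shared probe sets. That of complex III (0.76) became 0.22 after median centring and -0.12 with either stricter filter. That of complex IV (0.61) became 0.31, 0.073 and 0.35 under the scalings, 0.44 with an offset of 50% and 0.26 with the highest floor, and that of complex V (-0.30) became -0.73, -0.85 and -0.65 under the scalings. Leaving out each RNA gave medians of 0.23 to 0.53 over all, 0.35 to 0.53 in complex I, 0.47 to 0.97 in II, 0.51 to 0.97 in III, 0.62 to 0.72 in IV and -0.46 to -0.18 in V.

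Changed signs were 0.45 and 0.89 for Cox6a1 after quantile normalization and cyclic loess, and -0.36, -0.48, -0.40 and -0.32 for Cox6a2 after these with median centring between them and on array 2 alone (-0.66 to 0.78 with each RNA left out in turn). Cox8b gave -0.19, -0.40 and -0.13 under the scalings, -0.21 on array 1 alone, -0.16 without the array above and -0.44 to 0.72 with each RNA left out. Sdhaf2 gave -0.11, -0.11 and -0.12 under the scalings and -0.0086 to 0.87 with each RNA left out, and Cox7a2 gave -0.020 after median centring. Atp5g2 gave 0.37 and Atp5l 0.73 as the mean of their probe sets, and Atp5l gave 0.61 on array 2 alone and 0.036 and 0.072 with the highest and second floor. The cause was not tested.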
